A study of Mus musculus with 12 samples.

Results

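The RNA levels of 10 Notch pathway genes were measured in sorted mouse liver cancer organoid cells: the receptors *Notch1*, *Notch2* and *Notch3*, the ligands *Jag1*, *Jag2*, *Dll1* and *Dll4*, and the targets *Hes1*, *Hey1* and *Nrarp*. The genes are a list of names with no threshold on their values, drawn up with earlier results of these data known, and all 10 were found among the 47069 genes of the count table. Tumors had been induced in *Lgr5–DTR–GFP* mice with diethylnitrosamine (DEN), a liver carcinogen, and were grown as organoids, which are self-renewing epithelial cultures in a gel. This knock-in allele, which the cells of all groups carry, makes GFP and the diphtheria toxin receptor from the *Lgr5* locus. Living CD45-negative cells were sorted by GFP, and there were 4 groups of 3 libraries: LGR5- and LGR5+ cells without treatment, and LGR5- and LGR5+ cells given 5-FU. This drug, 5-fluorouracil, blocks thymidylate synthesis and so DNA replication. Its dose and duration for the sequenced cells are not given in the sources used here. Nothing in the labels says that replicates came from separate cultures or animals, so a *P* value measures the spread between these libraries, which may be technical. In bulk RNA, fewer cells of a type and less RNA per cell cannot be told apart.

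Notch receptors are cut after a ligand on a neighbouring cell pulls on them, and the freed intracellular domain joins the DNA-binding protein RBPJ in the nucleus and switches on targets. The best known targets are the HES and HEY repressors and *Nrarp*, whose product feeds back on the intracellular domain. In the liver, *Jag1* and *Notch2* are known for their role in bile duct formation, and Notch activity favours a biliary over a hepatocyte fate.

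The upstream sequences of the 3 receptors and of *Nrarp* are shown because *Notch1* changed with 5-FU while *Notch2*, *Notch3* and *Nrarp* did not pass the test, and because the stretches printed hold no annotated exon. They come from the RefSeq promoter table (GRCm38.p6), which had an entry for 8 of the 10 members (*Dll1* has 2) and none for *Hes1* and *Hey1*. Each run is the 230 bases farthest from the start within the 250 bases upstream, 5′ to 3′, and capitals mark the HES N box, searched as CACNAG on both strands. Starts here are those of RefSeq. That of *Notch1* lies well inside the longer GENCODE span of the gene given below, so its stretch is upstream of this RefSeq start and not of the outer end of the gene.
Notch1 (chr2:26503843-26504072, minus strand): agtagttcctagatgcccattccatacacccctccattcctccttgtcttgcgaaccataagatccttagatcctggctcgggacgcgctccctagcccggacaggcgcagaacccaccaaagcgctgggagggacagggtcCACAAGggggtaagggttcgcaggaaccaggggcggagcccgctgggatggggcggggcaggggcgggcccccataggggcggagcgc
Notch2 (chr3:98013288-98013517, plus strand): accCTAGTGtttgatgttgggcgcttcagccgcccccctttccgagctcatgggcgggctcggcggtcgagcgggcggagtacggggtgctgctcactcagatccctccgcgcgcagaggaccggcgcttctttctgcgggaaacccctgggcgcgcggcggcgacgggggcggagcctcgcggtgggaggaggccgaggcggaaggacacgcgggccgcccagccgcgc
Notch3 (chr17:32166911-32167140, minus strand): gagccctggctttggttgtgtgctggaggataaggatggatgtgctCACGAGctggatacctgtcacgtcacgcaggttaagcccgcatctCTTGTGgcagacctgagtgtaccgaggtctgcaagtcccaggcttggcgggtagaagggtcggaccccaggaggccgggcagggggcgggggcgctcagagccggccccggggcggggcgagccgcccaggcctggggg
Nrarp (chr2:25180508-25180737, plus strand): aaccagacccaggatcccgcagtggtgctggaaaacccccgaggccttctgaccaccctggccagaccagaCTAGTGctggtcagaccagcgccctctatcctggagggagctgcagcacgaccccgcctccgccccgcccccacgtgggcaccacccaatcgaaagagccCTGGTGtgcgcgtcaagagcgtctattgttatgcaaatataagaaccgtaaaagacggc

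The N box letters occurred once in the *Notch1* window, 108 bases before the RefSeq start, once in that of *Notch2* at 247 bases, in *Notch3* at 204 and 159 bases and in *Nrarp* at 179 and 79 bases. *Dll4* also held a match, at 75 bases, and *Jag1*, *Jag2* and *Dll1* held none. Of all 32851 windows of 250 bases, 36.7% held this motif. The core letters bound by RBPJ, TGGGAA on either strand, were in 21.6% of all windows and in 0 of the 9 windows of the members. AP-1 letters (TGANTCA) were in 6.75% of all windows and in 1 *Dll1* window, 109 bases before the start, and the p53 half-site (7.13% of all) and the TATA box TATAAA (12.4%) were in none of the 9. A match of letters is a description of the sequence and not a binding site. The GC content of the windows was 66% for *Notch1*, 72% for *Notch2*, 68.8% for *Notch3* and 61.2% for *Nrarp*.

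Counted reads lay between 13750591 and 19323514 per library, and a count of 0 still allows 3 reads, or 0.165 to 0.22 CPM (the count scaled by library size after TMM adjustment). *Lgr5*, the gene the sort rests on, did not separate the populations: it was at 23 to 36 CPM in untreated LGR5- and 23.3 to 27.5 CPM in untreated LGR5+ libraries, and at 18.3 to 35.9 and 26.8 to 27.2 CPM after 5-FU (log2 fold change -0.17 and 0.11, edgeR adjusted *P* = 1 and 0.842). LGR5+ and LGR5- are therefore the labels of the sort. Mitochondrial genes took 1.47% to 3.08% of reads, but 6.44% or more in LGR5- replicate 3 of both treatments. All 7 bile duct and simple epithelium markers were present, with a summed level of 3820 to 5240 CPM in untreated and 6390 to 21600 CPM in 5-FU-treated libraries. Of the 7 hepatocyte markers, *Serpina1a* was at 0 in every library and the sum was 10.5 to 22.4 CPM untreated and 26 to 56.5 CPM after 5-FU. Nearly all of it was *Afp*, a fetal liver protein, called higher after 5-FU in both populations. The other markers, the albumin gene *Alb* and the liver regulator *Hnf4a* among them, had group means below 1 CPM. All 7 lung epithelium markers had reads, although the labels give liver as the source, with sums of 3530 to 17400 CPM untreated and 2770 to 6240 CPM after 5-FU. These sums were almost wholly *Sftpc*, the gene of a lung surfactant protein, whose group means were 12400 CPM in LGR5- and 8770 CPM in LGR5+ cells untreated and 5190 and 4290 CPM after 5-FU, a difference that was not called (adjusted *P* = 0.147 and 0.228, edgeR). The lung regulator *Nkx2-1* had group means of 49.3 to 63.2 CPM. Of the 7, 2 were called higher after 5-FU in each population (*Hopx* in both, *Foxj1* in LGR5+ and *Scgb1a1* in LGR5- cells) and 0 lower. Stratified epithelium markers, led by *Krt5* and *Krt14*, moved with treatment: their sum was 50.9 to 73.4 CPM in untreated LGR5-, 44.5 to 115 CPM in untreated LGR5+, 198 to 462 CPM in 5-FU LGR5- and 738 to 1300 CPM in 5-FU LGR5+ libraries. Of that list, 5 of 7 were called higher after 5-FU in each population, as were 5 of 7 bile duct markers in LGR5+ and 4 of 7 in LGR5- cells. Of all genes tested, 9.66% were called higher in LGR5+ and 8.3% in LGR5- cells. The bile duct markers called were the keratin genes and, in LGR5+ cells, *Cdh1*. *Sox9* (log2 fold change 0.22 in LGR5+ and 0.05 in LGR5- cells) and *Epcam* (-0.13 and -0.50) were not called. Nor were *Trp63* (0.31 and -0.04) and *Krt10* (0.04 and 0.56) of the stratified list. Endothelial markers summed to 1.67 to 4.06 CPM, nearly all of it *Kdr*, with *Tie1* and *Emcn* at 0 in every library. Leukocyte markers summed to 11.5 to 20 CPM, nearly all of it *Kit*, with *Cd3e* at 0 in every library and each of the others, *Ptprc* included, at group means below 1 CPM. Fibroblast and mural cell markers summed to 27.3 to 61.7 CPM, most of it *Dcn*, with *Lum* at 0 in every library and the collagen genes *Col1a1* and *Col3a1* at group means below 1 CPM. Of that list, the mural markers *Pdgfrb* and *Des* were called with 5-FU in both populations, in opposite directions: *Pdgfrb* was lower (log2 fold change -1.05 in LGR5+ and -1.24 in LGR5- cells, edgeR adjusted *P* = 0.0469 and 0.0241) and *Des* higher (2.91 and 2.84, adjusted *P* = 0.0268 and 0.0355). The part of these markers in the results below was not tested.

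*Notch1* (ENSMUSG00000026923, GRCm38 chromosome 2 from 26457903 to 26516663, minus strand) encodes a receptor that many epithelial progenitors use. It was at 14.9, 12.9 and 19.3 CPM in untreated LGR5- libraries and at 16.2, 26.5 and 13.8 CPM in untreated LGR5+ libraries. After 5-FU it was at 58.4, 54.5 and 54.5 CPM in LGR5- and at 65.0, 86.4 and 83.0 CPM in LGR5+ libraries. Every 5-FU-treated library lay above every untreated library, and of the other members *Jag1* and *Hes1* alone shared this. The log2 fold change was 2.05 (SE 0.24, adjusted *P* = 4.77e-05, edgeR's quasi-likelihood test) in LGR5+ cells and 1.83 (SE 0.24, adjusted *P* = 0.000177) in LGR5- cells, with 3 libraries in each group. Mean *Notch1* rose from 18.8 ± 6.73 to 78.1 ± 11.5 CPM (SD, n = 3) in LGR5+ cells and from 15.7 ± 3.23 to 55.8 ± 2.27 CPM in LGR5- cells. An opposite-strand gene, *0610009E02Rik*, overlaps 7.5% of its exon bases and held 5 to 28 reads per library against 231 to 1570 for *Notch1*.

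**Figure D1:**
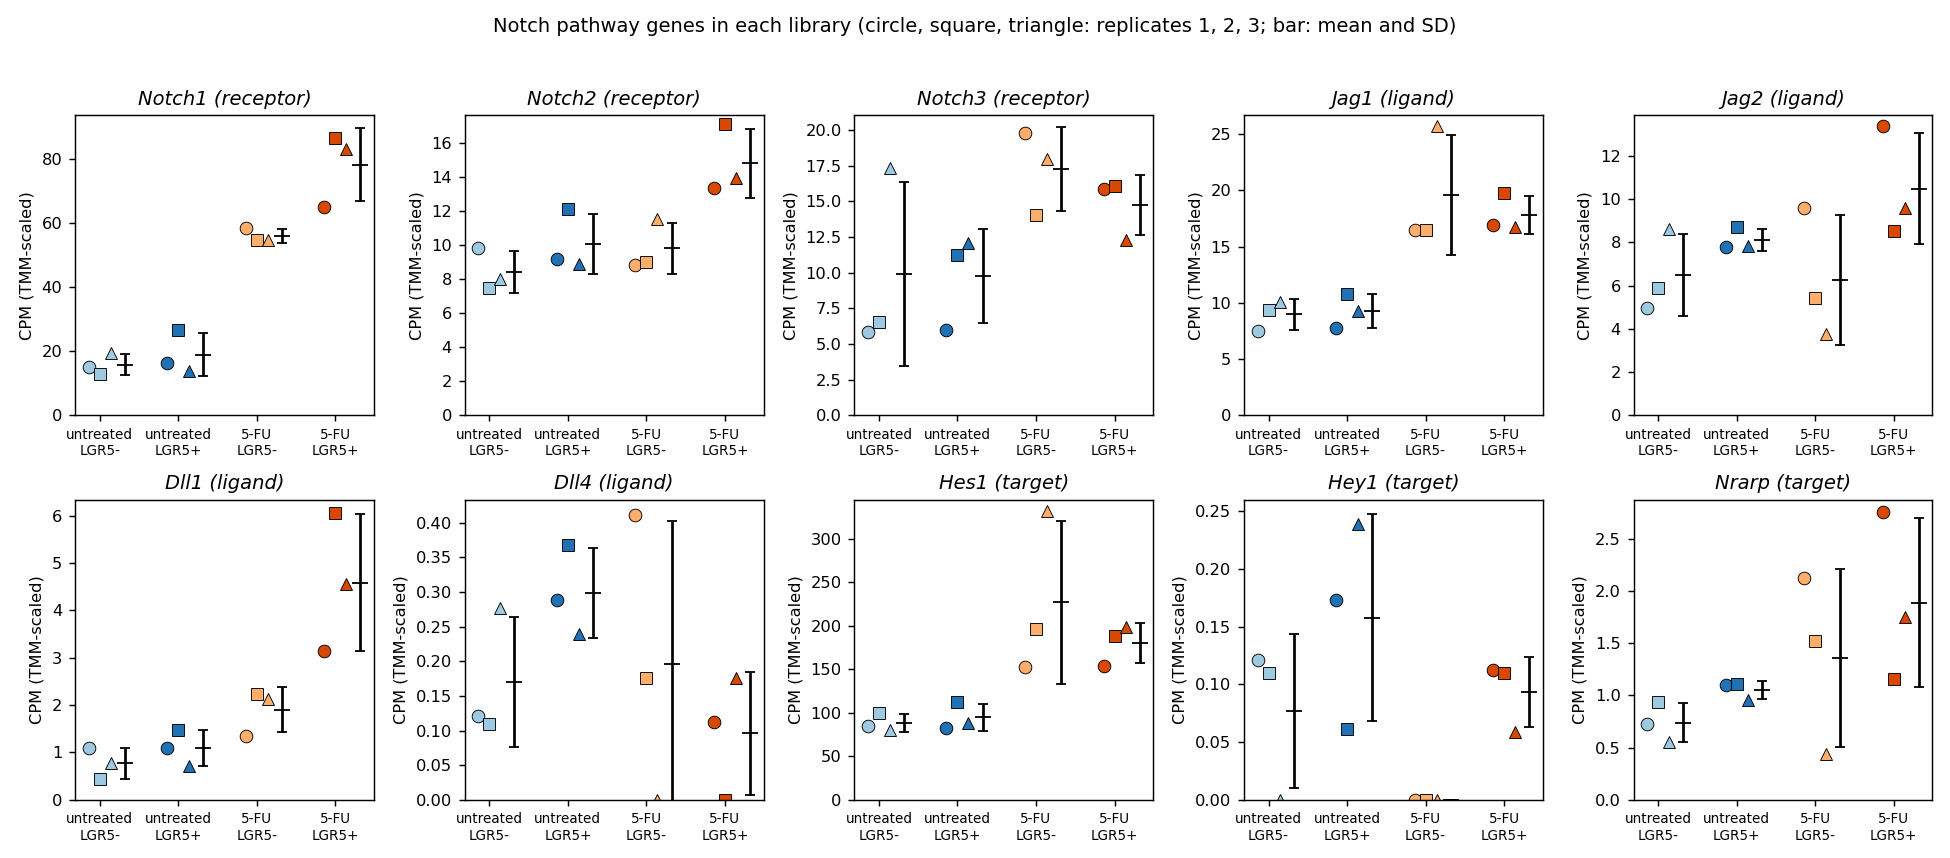
Level of each of the 10 genes in CPM (linear axis from 0, a scale of its own for each gene) in the 4 groups, with a point for each library and the mean with its SD beside them. *Notch1*, *Jag1* and *Hes1* sit higher in all 6 treated than in all 6 untreated libraries, while *Dll4* and *Hey1* stay below 0.5 CPM throughout.

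*Notch2* (ENSMUSG00000027878, chromosome 3 from 98013527 to 98150361, plus strand), the receptor linked to bile duct formation, was at 9.82, 7.46 and 8.0 CPM in untreated LGR5-, 9.18, 12.1 and 8.90 CPM in untreated LGR5+, 8.83, 9.02 and 11.5 CPM in 5-FU LGR5- and 13.3, 17.1 and 13.9 CPM in 5-FU LGR5+ libraries. The 5-FU-treated LGR5+ libraries lay above all others, and the other 3 groups overlapped. Its change in LGR5+ cells did not pass the test (log2 fold change 0.56, SE 0.21, adjusted *P* = 0.0845), nor did that in LGR5- cells (0.22, SE 0.21, adjusted *P* = 0.548). In LGR5+ cells it passed, at 0.55 (adjusted *P* = 0.0416), when LGR5- replicate 3 of both treatments was left out of the fit. The same-strand gene *Gm42820* overlaps 5.02% of the *Notch2* exon bases. It had 19 reads in untreated and 25 in 5-FU LGR5- replicate 3, and 2 to 8 in the other libraries. Its part in the *Notch2* values was not tested. *Notch3* (ENSMUSG00000038146, chromosome 17 from 32120820 to 32166852, minus strand), a receptor best known from vascular mural cells, was at 5.82, 6.53 and 17.3 CPM in untreated LGR5- and 6.01, 11.2 and 12.1 CPM in untreated LGR5+ libraries. After 5-FU it was at 19.8, 14.1 and 18.0 CPM in LGR5- and 15.9, 16.1 and 12.3 CPM in LGR5+ libraries. Untreated LGR5- replicate 3 lay within the treated range, and untreated LGR5+ replicate 3, at 12.1 CPM, just below the lowest treated library, at 12.3 CPM. Untreated LGR5- replicate 3 also had the high mitochondrial share, as did 5-FU LGR5- replicate 3, which was at 18.0 CPM. The log2 fold change of *Notch3* was 0.80 (SE 0.36, adjusted *P* = 0.161) in LGR5- cells. Without untreated LGR5- replicate 3 it was 1.48 (edgeR adjusted *P* = 0.00285). In LGR5+ cells it was 0.59 (SE 0.36, adjusted *P* = 0.305).

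*Jag1* (ENSMUSG00000027276, chromosome 2 from 137081456 to 137116644, minus strand), the ligand of bile duct development, was at 7.45, 9.38 and 10.1 CPM in untreated LGR5- and 7.80, 10.8 and 9.26 CPM in untreated LGR5+ libraries. With 5-FU it was at 16.5, 16.5 and 25.7 CPM in LGR5- and 16.9, 19.8 and 16.8 CPM in LGR5+ libraries. Treated and untreated libraries did not overlap in either population, and LGR5- replicate 3 was the highest. *Jag1* rose by a log2 fold change of 0.94 (SE 0.22, adjusted *P* = 0.00892) in LGR5+ and 1.12 (SE 0.22, adjusted *P* = 0.00366) in LGR5- cells. *Jag2* (ENSMUSG00000002799, chromosome 12 from 112907819 to 112929776, minus strand), the other Serrate-type ligand, was at 4.97, 5.87 and 8.61 CPM in untreated LGR5-, 7.80, 8.73 and 7.82 CPM in untreated LGR5+, 9.59, 5.45 and 3.74 CPM in 5-FU LGR5- and 13.4, 8.53 and 9.59 CPM in 5-FU LGR5+ libraries. All 4 groups of *Jag2* overlapped with at least 1 other group. Its log2 fold change with 5-FU was 0.37 (SE 0.31, adjusted *P* = 0.473) in LGR5+ and -0.05 (SE 0.32, adjusted *P* = 0.945) in LGR5- cells.

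*Dll1* (ENSMUSG00000014773, chromosome 17 from 15367354 to 15376872, minus strand), a Delta-type ligand of progenitor and secretory cells, had few reads in untreated cells: 18, 8 and 14 in LGR5- and 19, 24 and 12 in LGR5+ libraries. With 5-FU it had 23, 38 and 29 reads in LGR5- and 56, 110 and 78 reads in LGR5+ libraries. On the CPM scale these are 1.09, 0.439 and 0.777, then 1.10, 1.47 and 0.717, then 1.35, 2.22 and 2.13, and 3.15, 6.05 and 4.56. The treated LGR5+ libraries lay above all the others. *Dll1* rose with 5-FU in LGR5+ cells by a log2 fold change of 2.06 (SE 0.43, adjusted *P* = 0.00418), and in LGR5- cells, where the groups also did not overlap, the value was 1.30 (SE 0.44, adjusted *P* = 0.0605). For LGR5- cells DESeq2 gave 1.33 with an adjusted *P* of 0.0346, and edgeR gave 1.497 (adjusted *P* = 0.0471) without treated LGR5- replicate 1. The opposite-strand *A930024N18Rik*, with 0 to 4 reads, shares 20.5% of the exon bases of *Dll1*.

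*Dll4* (ENSMUSG00000027314, chromosome 2 from 119325784 to 119335962, plus strand), a ligand best known from sprouting endothelium, had 2, 2 and 5 reads in untreated LGR5-, 5, 6 and 4 in untreated LGR5+, 7, 3 and 0 in 5-FU LGR5- and 2, 0 and 3 in 5-FU LGR5+ libraries. *Hey1* (ENSMUSG00000040289, chromosome 3 from 8663359 to 8667256, minus strand), a repressor related to the HES proteins, had 2, 2 and 0, then 3, 1 and 4, then 0, 0 and 0, and 2, 2 and 1 reads in the same order. Both genes were at or near the limit of 3 reads and were removed by the filter on low counts. Without the filter, the smallest adjusted *P* of either gene in any comparison was 0.339, for *Hey1*. Summed over its 3 libraries, *Hey1* was at 0.159 CPM in untreated LGR5+ cells (exact Poisson 95% interval 0.0686 to 0.313, for counting error only). In 5-FU LGR5- cells it was at 0 (up to 0.0773). These groups differ in both treatment and sort, so their difference belongs to none of the comparisons. *Hey1* is on the study's list of genes that differed between the treated populations. For that comparison its log2 fold change without the filter was 3.77 (adjusted *P* = 0.532, edgeR), and since its LGR5- libraries were all at 0 this fitted value is no measure of size.

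*Hes1* (ENSMUSG00000022528, chromosome 16 from 30064384 to 30067796, plus strand), a repressor that Notch and other signals induce, was at 84.3, 100.2 and 79.6 CPM in untreated LGR5- and 82.8, 112.4 and 88.7 CPM in untreated LGR5+ libraries. After 5-FU it was at 152.1, 196.4 and 331.7 CPM in LGR5- and at 153.6, 187.8 and 198.3 CPM in LGR5+ libraries. The treated libraries were above the untreated libraries in both populations, and LGR5- replicate 3 was again the highest. *Hes1* rose by 1.36 (SE 0.26, adjusted *P* = 0.00276) on the log2 scale in LGR5- and by 0.93 (SE 0.25, adjusted *P* = 0.0214) in LGR5+ cells. In LGR5+ cells the call was lost when untreated replicate 1 or 3 or treated replicate 2 or 3 was left out, with log2 fold changes of 0.84, 0.89, 0.90 and 0.85 and adjusted *P* values of 0.0789, 0.0851, 0.0742 and 0.087. *Nrarp* (ENSMUSG00000078202, chromosome 2 from 25180758 to 25183339, plus strand) was at 0.727, 0.933 and 0.555 CPM in untreated LGR5-, 1.10, 1.11 and 0.956 CPM in untreated LGR5+, 2.12, 1.52 and 0.44 CPM in 5-FU LGR5- and 2.75, 1.16 and 1.75 CPM in 5-FU LGR5+ libraries. The treated LGR5+ libraries lay above the untreated ones, while the LGR5- groups overlapped because treated replicate 3, with 6 reads, was the lowest of all 12. Neither change passed the test, with log2 fold changes of 0.84 (SE 0.52, adjusted *P* = 0.308) and 0.89 (SE 0.53, adjusted *P* = 0.298). The opposite-strand *Gm38287*, which covers 79.4% of the *Nrarp* exon, had no read in any library. If strand was ignored in counting, reads in the shared bases may have been left out as ambiguous, and the level of *Nrarp* would then be understated.

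For the 5-FU comparison in LGR5+ cells, 4 of the 8 members tested were called higher (*Notch1*, *Jag1*, *Dll1* and *Hes1*) and 0 lower, where called means an adjusted *P* under 0.05. Among all 16157 genes tested, 9.66% were called higher, 6.37% lower and 16% in either direction. The median log2 fold change of the 8 members was 0.88 and that of all genes -0.02. In 7 of the 8 the treated libraries lay above the untreated without overlap, as they did for 22.3% of all genes. In LGR5- cells 3 of 8 were called higher (*Notch1*, *Jag1* and *Hes1*) and 0 lower, against 8.3% of all genes called higher, 7.11% lower and 15.4% either way. The median was 1.01 for the members and -0.05 for all genes, and 4 of 8 did not overlap, against 13.7%. The study lists *Notch1*, *Dll1* and *Dll4* among the genes that differed in LGR5+ cells and *Notch1* in LGR5- cells, from these same libraries, so these counts are not independent of that choice. *Dll4*, too low to pass the filter, had group means of 0.299 CPM in untreated and 0.0959 CPM in treated LGR5+ cells, with a log2 fold change of -1.61 without the filter (adjusted *P* = 0.48, edgeR), of opposite sign to those of *Notch1* and *Dll1* and not called. The study states limits of *P* under 0.05 and an absolute log fold change over 1.5, without naming an adjustment or the base of the log. They were read here as edgeR's unadjusted *P* and log2. *Notch1* then passed in both populations and *Dll1* in LGR5+ cells, as did 7.23% of all genes in LGR5+ and 7% in LGR5- cells. The smallest exact permutation *P* for 3 libraries against 3 is 0.1, and the members without overlap had this value. The keratin markers *Krt5* and *Krt14* moved with the same contrast, with log2 fold changes of 3.38 and 4.21 in LGR5+ cells. In LGR5- cells they were 2.68 and 2.87, and their part in the Notch values was not tested.

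**Figure D2:**
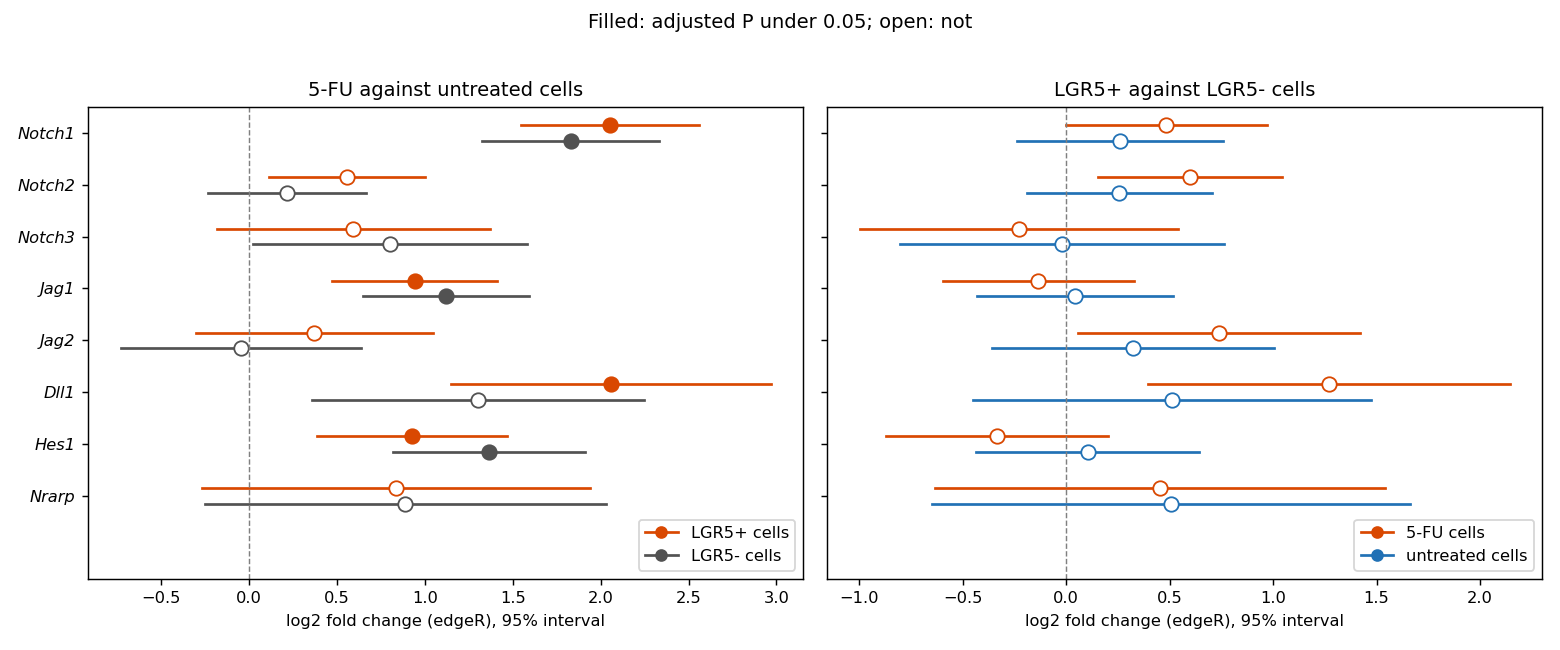
Log2 fold change of the 8 tested genes with its 95% interval, for 5-FU against untreated cells (left) and for LGR5+ against LGR5- cells (right), filled where the adjusted *P* was under 0.05. *Notch1*, *Jag1* and *Hes1* are filled in both populations on the left and *Dll1* in LGR5+ cells, and nothing is filled on the right.

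Whether the 5-FU response differed between the populations was tested as the difference of the 2 responses. No member was called, nor was any of the 16157 genes (0% called by edgeR, with 254 genes, or 1.57%, at an unadjusted *P* under 0.05 and no member among them). The difference was 0.22 for *Notch1* (95% interval -0.47 to 0.92 on the log2 scale), -0.18 for *Jag1* (-0.84 to 0.48), 0.76 for *Dll1* (-0.55 to 2.06) and -0.44 for *Hes1* (-1.20 to 0.32). These intervals reach beyond 0.5 on at least 1 side for *Notch1*, *Jag1*, *Dll1* and *Hes1*, so a difference in response was not shown, and neither was equality.

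Between untreated LGR5+ and LGR5- cells no member was called and the adjusted *P* of each was 1. Of all genes 0% were called, and 214, or 1.32%, had an unadjusted *P* under 0.05, none of them a member. *Nrarp* alone did not overlap, with LGR5+ libraries higher (log2 fold change 0.51, SE 0.54), as for 2.7% of all genes. The interval of the difference was -0.24 to 0.76 for *Notch1* and -0.44 to 0.64 for *Hes1*. After 5-FU no member was called either. Of all genes 0% were called by edgeR, 2095, or 13%, had an unadjusted *P* under 0.05, among them 4 members (*Notch1*, *Notch2*, *Jag2* and *Dll1*), and DESeq2 called 79 genes and no member. *Notch1*, *Notch2* and *Dll1* were higher in each 5-FU-treated LGR5+ than in each LGR5- library, a pattern that 14.2% of all genes had. Their log2 fold changes were 0.49 (SE 0.23, adjusted *P* = 0.385), 0.60 (SE 0.21, adjusted *P* = 0.35) and 1.27 (SE 0.41, adjusted *P* = 0.344). *Jag2* was at 0.74 (SE 0.32, adjusted *P* = 0.372), *Nrarp* at 0.46, *Jag1* at -0.13, *Notch3* at -0.23 and *Hes1* at -0.33. These 6 libraries share replicate numbers, but the labels do not say that libraries of the same number belong together. A fit of only these 6 libraries, with the replicate number as a block, was chosen after the data were seen. In it *Dll1* was called higher in LGR5+ cells (log2 fold change 1.19, edgeR adjusted *P* = 0.0496), with 1.41% of 15196 genes called higher. That call rests on a pairing that the labels do not give. *Notch1* (0.40, adjusted *P* = 0.113), *Notch2* (0.53, adjusted *P* = 0.104) and *Jag2* (0.73, adjusted *P* = 0.0702) were not called in that fit. *Krt5* and *Krt14* differed in the same contrast by 1.51 and 1.94, also without overlap and uncalled by the fit of all libraries (adjusted *P* = 0.344 and 0.286), and their part in the *Dll1* value was not tested.

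Levels of different genes were compared per kilobase of union exon length (RPKM), since longer genes collect more reads. *Hes1* was the highest in every group, at 43.2 ± 5.31 RPKM in untreated LGR5-, 46.5 ± 7.69 in untreated LGR5+, 111 ± 45.9 in 5-FU LGR5- and 88.3 ± 11.5 in 5-FU LGR5+ cells (SD, n = 3), without overlap with the next gene. *Jag1* was next in untreated cells, at 1.54 and 1.59 RPKM, and there *Jag1*, *Notch3*, *Notch1*, *Jag2* and *Notch2* each overlapped with the neighbour in this run. *Notch1* came next after *Hes1* in treated cells, at 3.92 RPKM in LGR5- cells, where it overlapped with *Jag1* at 3.36, and at 5.49 RPKM in LGR5+ cells, where it lay above *Jag1* at 3.06 without overlap. *Nrarp* and *Dll1* followed at 0.182 to 1.09 RPKM, and *Dll4* and *Hey1* were last in all 4 groups. The union exon length of *Notch1*, 14232 bases, includes alternative exons, so its RPKM is if anything low.

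**Figure D3:**
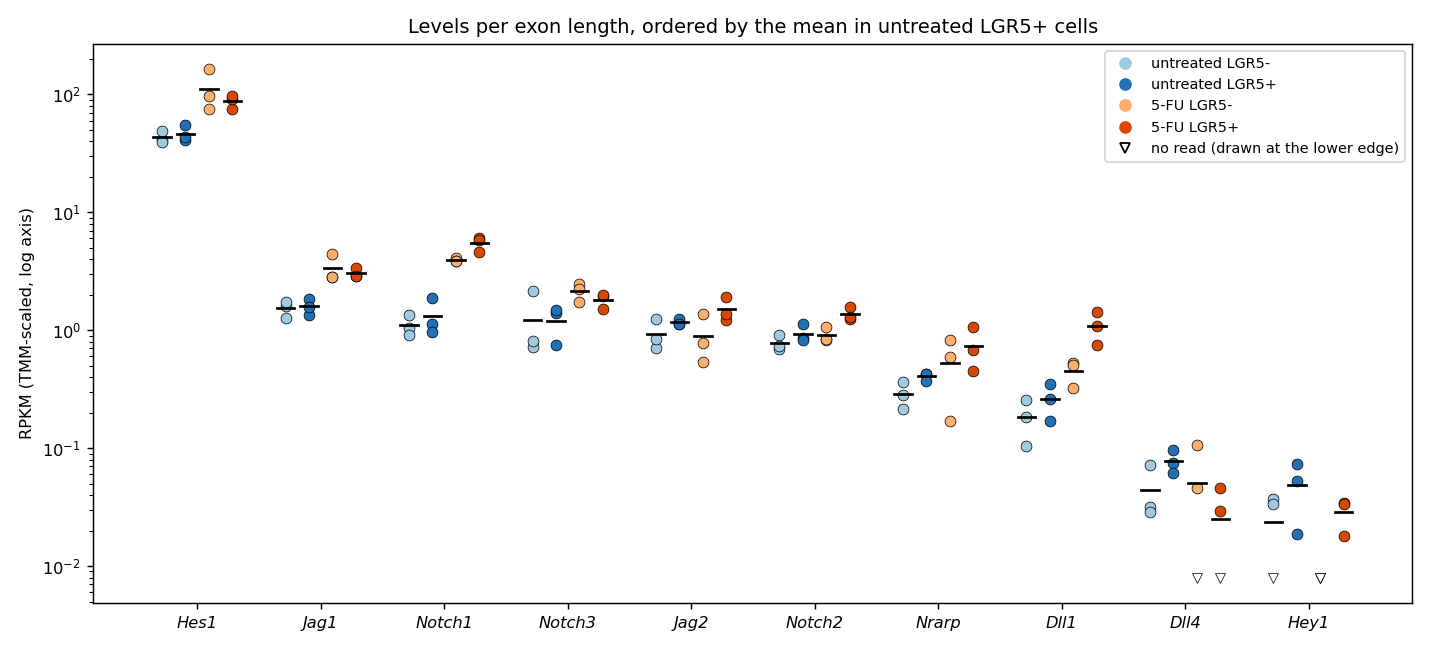
RPKM of the 10 genes on a log axis, a point for each library and a bar for each group mean, ordered by the mean in untreated LGR5+ cells. *Hes1* is more than 10 RPKM above all others in every group, and open triangles at the lower edge mark libraries without a read.

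The make-up of the receptors changed with treatment. *Notch1* made 34% ± 3.75 of the summed RPKM of the 4 Notch receptors in untreated LGR5- and 36.7% ± 7.15 in untreated LGR5+ libraries, against 55.1% ± 3.18 and 62.5% ± 4.35 after 5-FU (SD, n = 3). The highest untreated library was at 41.6% and the lowest treated library at 52.4%. *Notch2* went from 25.1% and 26.4% to 12.7% and 15.6%, and *Notch3* was at 34.6% and 33.7% untreated and 29.8% and 20.9% treated. The sum itself was 2.59 to 4.54 RPKM untreated and 6.54 to 9.69 RPKM treated. Of the ligands, *Jag1* made 57.4% and 51.3% of the sum in untreated LGR5- and LGR5+ libraries and 69.9% and 53.8% after 5-FU. *Dll1* was at 7.01% ± 3.81, 8.31% ± 2.22 and 9.58% ± 2.86 in the first 3 groups and at 19% ± 5.28 in 5-FU LGR5+ cells, whose lowest library (13.3%) lay above the highest of the others (12.6%). These shares are descriptions and were not tested.

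**Figure D4:**
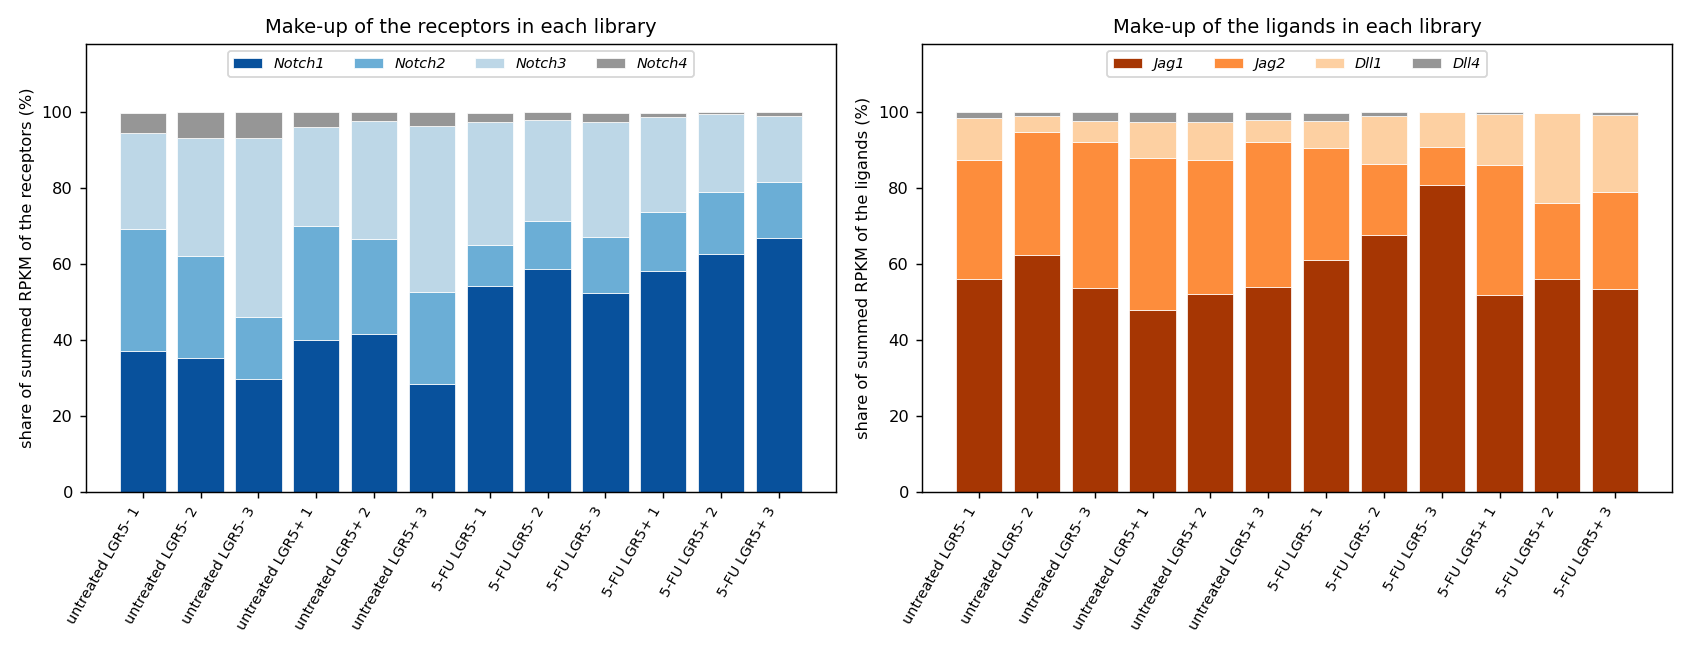
Share of each receptor (left) and ligand (right) in the summed RPKM of its class, in percent, for each of the 12 libraries. The *Notch1* part is above 50% in all 6 treated libraries and at most 41.6% in the untreated, and the *Dll1* part is largest in 5-FU LGR5+ libraries.

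Of 46 other genes of the pathway, 40 were tested, and few changed. In LGR5+ cells 1 was called higher and 2 lower with 5-FU (7.5% of the 40, against 16% of all genes), and in LGR5- cells 1 higher and 1 lower (5%, against 15.4%). *Poglut1*, an O-glucosyltransferase of the receptors' EGF repeats, was at 23.4 to 31.2 CPM in untreated and 46.3 to 53.9 CPM in treated LGR5+ libraries, and at 23.3 to 32.4 and 38.7 to 43.4 CPM in LGR5- libraries. It rose by 0.92 (SE 0.17, adjusted *P* = 0.00209) and 0.57 (SE 0.17, adjusted *P* = 0.0371) on the log2 scale. *Rbpjl*, a relative of *Rbpj* known from the pancreas, was at 35.2 to 45.1 CPM untreated and 11.6 to 15.01 CPM treated in LGR5+ and at 44.2 to 69.0 and 17.6 to 27.4 CPM in LGR5- libraries. Its log2 fold change was -1.59 (SE 0.22, adjusted *P* = 0.00022) and -1.23 (SE 0.22, adjusted *P* = 0.00187), and it is among the genes the study lists for LGR5+ cells. *Neurl1b*, a ubiquitin ligase that acts on ligand uptake, fell by 1.07 (SE 0.27, adjusted *P* = 0.014) in LGR5+ cells, from 7.22 to 14.1 CPM in untreated libraries to 4.44 to 5.78 CPM in treated libraries. *Rbpj* itself, the DNA-binding partner of the cleaved receptor, had log2 fold changes of -0.41 (adjusted *P* = 0.265) and -0.46 (adjusted *P* = 0.216). None of the 10 receptor cleavage genes and none of the 5 corepressors was called in either population. Between populations and for the difference of responses none of the 40 was called. *Notch4*, the fourth receptor, had 7 to 44 reads and was at 0.385 to 0.787 CPM in 5-FU LGR5+ and 1.11 to 1.53 CPM in 5-FU LGR5- libraries (log2 fold change -1.12, SE 0.45, adjusted *P* = 0.362). The targets *Hes5*, *Hey2* and *Heyl* and the genes *Dll3*, *Mfng* and *Dtx1* were too low to be tested.

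**Figure D5:**
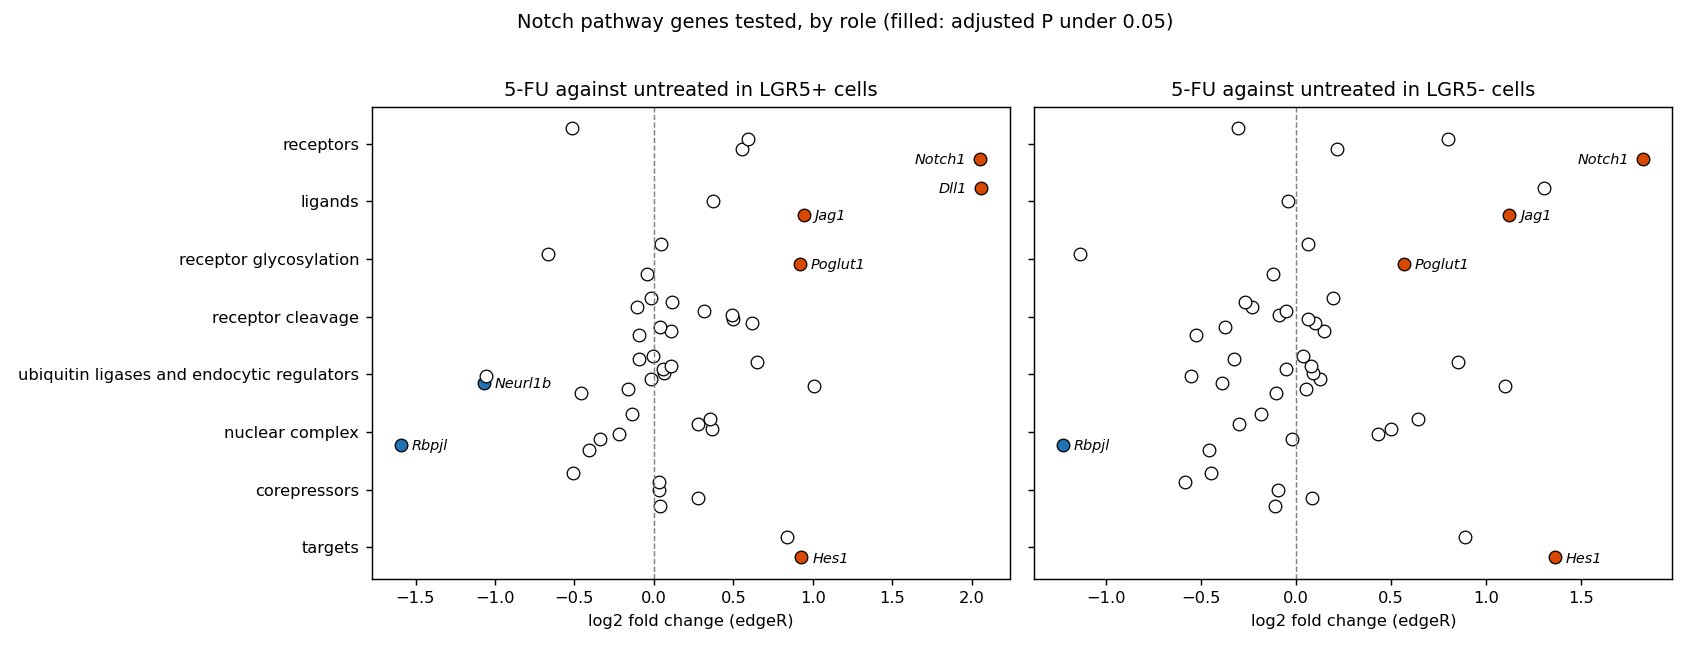
Log2 fold change with 5-FU of the tested pathway genes, each a point in the row of its role, in LGR5+ (left) and LGR5- cells (right), filled and named where the adjusted *P* was under 0.05. The filled points on the right of 0 are *Notch1*, *Jag1*, *Hes1*, *Poglut1* and, in LGR5+ cells, *Dll1*, and those on the left are *Rbpjl* and, in LGR5+ cells, *Neurl1b*.

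With the 5-FU effect averaged over both populations, a contrast added after the data were seen, 4 of the 8 tested members were called by edgeR, against 30.2% of all genes: *Notch1* (log2 fold change 1.94, adjusted *P* = 1.2e-06), *Jag1* (1.03, adjusted *P* = 0.000174), *Hes1* (1.15, adjusted *P* = 0.000235) and *Dll1* (1.68, adjusted *P* = 0.000781). *Notch3* was at 0.70 (adjusted *P* = 0.0535), *Notch2* at 0.39 (adjusted *P* = 0.0619), *Nrarp* at 0.86 (adjusted *P* = 0.0942) and *Jag2* at 0.16 (adjusted *P* = 0.625). The LGR5+ against LGR5- difference averaged over both treatments gave no call among the members or among all genes (0%). *Dll1* was at 0.89 (unadjusted *P* = 0.0106, adjusted *P* = 0.362, edgeR) and *Notch2* at 0.43 (unadjusted *P* = 0.0114, adjusted *P* = 0.362).

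Across the 12 libraries Pearson's r of log2 CPM with *Notch1* was 0.904 for *Jag1*, 0.904 for *Dll1*, 0.843 for *Hes1*, 0.718 for *Notch2*, 0.694 for *Notch3*, 0.504 for *Nrarp* and 0.266 for *Jag2*, a graded series. Between other members it was highest for *Jag1* and *Hes1*, at 0.955, and for *Notch2* and *Dll1*, at 0.905, and lowest for *Jag2* and *Hes1*, at -0.214. *Nrarp* had 0.715 with *Jag2* and 0.15 with *Hes1*. Among 16149 other genes, those most like *Notch1* included *Adam8* (a membrane metalloprotease, r = 0.987) and *Fbxw9* (an F-box protein, 0.985). Those most like *Hes1* were *Cd151* (a tetraspanin, 0.977), *S100a13* (a calcium-binding protein, 0.976) and *Borcs8* (0.969). The libraries share their treatment groups, so these values describe the 4 groups as much as single libraries and carry no test.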

How the data were processed

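The authors sorted cells from organoids, purified their RNA on RNeasy Micro columns, made amplified cDNA by a SMARTer protocol and obtained paired reads of 150 bases. They deposited 1 table of raw read counts per Ensembl gene, without normalization, for 12 libraries. The submitters' processing notes name HISAT, HISAT2, TopHat2 and HTSeq without versions and the genome build mm8. The annotation and the strand setting are not given in the sources used here, and neither is the overlap mode. HTSeq by default leaves out reads that overlap more than 1 gene, so without strand, reads in bases shared by genes on opposite strands may be missing from both. The table holds no coordinates, and positions on GRCm38 are those of GENCODE M21, which gave a symbol to 46488 of 47069 identifiers.

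Counts were analysed in R 4.3.3 with edgeR 4.0.16 (limma 3.58.1): filterByExpr kept 16157 genes, TMM scaled them, and glmQLFit (robust) with 4 group means and glmQLFTest gave log2 fold changes and Benjamini-Hochberg adjusted *P* values over all genes tested. CPM are TMM-scaled, and RPKM divide them by union exon length. Exact permutation tests on CPM were two-sided. The scripts were tested on simulated data. The biological coefficient of variation was 26.6%. All 10 members are named. Other pathway genes are named where called, with at most 6 per comparison, plus *Rbpj*. *Notch4* and the marker genes were named after their values were seen, and so were the members of the blocked fit. The genes most like *Notch1* and *Hes1* are the 3 with the highest r for each, of which 1 is not reported here. The members, gene lists and tests were chosen with earlier results of these data known. Alternatives were other scalings, dropping the filter or requiring 10 reads in all libraries, DESeq2 1.42.0, only the libraries compared, a replicate block, and leaving out libraries.

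Replicate numbers pair the 5-FU-treated libraries: the deviations of LGR5+ and LGR5- libraries of the same number from their group means correlated at 0.571, 0.217 and 0.304. In the other comparisons the same-number correlations ranged down to -0.168, and libraries share only a number. No pair of replicates was a copy of another.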

Additional observations from a re-analysis of the deposited data

How the results depend on the processing

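The number of members called with 5-FU ranged from 3 to 4 when each of the 6 libraries compared was left out in turn, in LGR5+ and in LGR5- cells alike, and was 0 in the other comparisons when each of their own libraries was left out. *Notch1*, *Jag1* and *Dll1* in LGR5+ cells and *Notch1*, *Jag1* and *Hes1* in LGR5- cells were called in each of these fits. *Dll1* and *Nrarp* were not tested with at least 10 reads in every library. The replicate block in a fit of all 12 libraries changed no member's call, with 4, 3, 0, 0 and 0 members called. In the fit of the 6 treated libraries alone with the replicate block, 1 member was called (*Dll1*) and 451 genes in all, against 0 without the block. Without LGR5- replicate 3 of both treatments, *Notch2* in LGR5+ cells (0.55, adjusted *P* = 0.0416) and *Notch3* in LGR5- cells (1.45, adjusted *P* = 0.00562) passed, and without 5-FU LGR5- replicate 1 *Dll1* passed in LGR5- cells (1.497, adjusted *P* = 0.0471). The causes were not tested.

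All log2 fold changes that turned sign were uncalled. With 1 of the compared libraries left out, they ranged for *Jag2* in LGR5- cells with 5-FU from -0.49 to 0.25. Between untreated populations they ranged for *Notch1* from -0.061 to 0.45, for *Notch3* from -0.28 to 0.66, for *Jag1* from -0.072 to 0.17 and for *Hes1* from -0.035 to 0.21. Between treated populations they ranged for *Jag1* from -0.24 to 0.076 and for *Hes1* from -0.54 to 0.013. For the difference of responses they ranged for *Notch3* from -0.89 to 0.059, for *Jag1* from -0.29 to 0.032 and for *Nrarp* from -0.49 to 0.41. Without LGR5- replicate 3 of both treatments, *Jag2* in LGR5- cells was at 0.47, *Notch3* between untreated populations at 0.66, *Jag1* and *Hes1* between treated populations at 0.11 and 0.045, and the differences of responses of *Jag2* and *Hes1* at -0.10 and 0.0083. *Notch3* between untreated populations was also at 0.039 without the filter, 0.0026 with DESeq2 and 0.042 with the replicate block, under which the difference for *Nrarp* was 0.022.

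Over all genes, the 2590 calls of LGR5+ cells became 4045 with only the libraries compared, 4448 without LGR5- replicate 3 of both treatments, and 1586, 1451 and 1373 without untreated replicate 3, treated replicate 2 and treated replicate 3. The 2489 calls of LGR5- cells became 1282 with only the libraries compared and 1562, 1645 and 1647 without untreated replicates 1 and 2 and treated replicate 2. Between treated populations, 11 genes were called without the filter and 79 with DESeq2. With library size only, the median log2 fold change of all genes in LGR5+ cells was -0.10. Depth limits *Dll4* and *Hey1*, which had at most 7 reads in a library.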
